A study of Mus musculus with 24 samples.

Results

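The complement genes described here are 7 genes measured by RNA-seq in mouse astrocytes, chosen by name as components and regulators of complement. They are C1ra, C4b, C3, Cfb, Serping1, Clu and Cd55, among 49671 genes in the count table, and all 7 had enough counts to be among the 19691 genes tested. The series compared widely used astrocyte preparations in 24 libraries, 4 in each of 6 groups. Neonatal astrocytes (neoAC) came from C57BL/6J mice 4 to 8 days old and adult astrocytes (AdAC) from C57BL/6J mice 100 to 140 days old. Both were enriched from brain tissue with magnetic beads against the surface antigen ACSA-2 and were either snap-frozen at once (neoAC direct, AdAC direct) or kept for 7 to 10 days in AstroMACS medium on laminin (neoAC CellC, AdAC CellC). Each isolation pooled 2 mice, and the dissociation kit differed between the ages, so that age and kit cannot be told apart. Astrocytes generated from embryonic stem cells (AGES) came from a mouse embryonic stem cell line through neural stem cells (NSC), which were kept at passage 50 to 60 with 20 ng/ml FGF and EGF. The NSC received 20 ng/ml BMP4 for 3 to 5 days to become AGES, so both groups derive from a common C57BL/6N stem cell line and their replicates are independent cultures of it. Between AGES and the primary cells the substrain and the medium differ too. The labels name no inflammatory stimulus for any group. Library totals lay between 27904126 and 37997368 counts.

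Complement is a cascade of blood and tissue proteins that tags surfaces for removal. In the classical pathway the recognition molecule C1q activates the proteases C1r and C1s, which cleave C4 and C2, and all pathways then cleave C3, whose fragment C3b binds covalently to nearby surfaces. Factor B, encoded by Cfb, forms the C3-cleaving enzyme of the alternative pathway, while C1 inhibitor (Serping1) blocks C1r and C1s, decay-accelerating factor (Cd55) dismantles C3-cleaving enzymes on the cell surface, and clusterin (Clu), a secreted chaperone, binds terminal complexes. In brain, microglia are known as the main source of C1q, astrocytes as a source of C3, C4 and clusterin, and C3 is widely used as a marker of reactive astrocytes.

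Coordinates are those of GRCm38, the build the authors aligned to. C3 lies on the minus strand at chr17:57203970-57228136 and C4b at chr17:34728380-34743882, in the same chromosome region as Cfb at chr17:34856374-34862518. C1ra lies at chr6:124512405-124523443, Serping1 at chr2:84765387-84775444, Clu at chr14:65968483-65981547 and Cd55 at chr1:130439027-130462744.

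C3 and C4b carry the internal thioester through which their fragments bind surfaces, and C4b has a near copy, C4a, with which it can share reads. The coding bases around the thioester are shown for C3 and C4b, 5′ to 3′, with the C4a bases that align with C4b. They show how far the genes differ there. The annotation used here types C4a as a processed transcript and not as protein coding. Capitals mark the 15 bases that encode the thioester motif in C3 and C4b, and the bases of C4a that align with them.
C3 (chr17:57215814-57215888, minus strand): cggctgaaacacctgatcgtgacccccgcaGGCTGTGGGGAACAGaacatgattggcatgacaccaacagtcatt
C4b (chr17:34734451-34734525, minus strand): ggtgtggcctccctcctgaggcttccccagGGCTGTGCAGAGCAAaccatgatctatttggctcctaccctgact
C4a (chr17:34815111-34815184, minus strand): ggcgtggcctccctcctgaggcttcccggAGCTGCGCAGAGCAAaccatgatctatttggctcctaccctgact
Here C3 and C4b differ at 36 of 75 bases, and C4b and C4a at 4 of 74 aligned bases, with 1 base of C4b having no partner in C4a. Over whole transcripts (Gencode vM21, same build) C4b and C4a shared 96.1% of 5367 aligned bases, and 16.5% of the 100-base windows of C4b occurred unchanged in a C4a transcript. The mate of a read pair can decide its place, and how pairs were placed was not tested. Of the 100-base windows of C1ra 34.5% occurred in its copy C1rb, and 6.86% of those of Cd55 occurred in Cd55b. C1rb held at most 5 counts in any library. Cd55b held at most 10. C4a made up 0.932% to 3.00% of the summed C4a and C4b counts in the 5 astrocyte groups (means of 4 libraries), and 42.7% ± 12.4 (SD, n = 4) in the NSC, where both genes were low.

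Promoter sequences from RefSeq (GRCm38.p6, 250 bases before to 50 after the annotated start) were at hand for 3 of the 7 genes, and are shown because C3 and C1ra were higher in cultured than in directly isolated astrocytes of both ages while Cd55 was higher in the neonatal cells alone. Capitals mark every match, on either strand, to TTCNNNGAA (the STAT site called GAS), GGGNNNNNCC (NF-kB), TTNNGNAA (C/EBP), GAAANNGAAA (IRF) or the core promoter letters TATAAA, and matches may overlap.
C3 (chr17:57228087-57228386, minus strand): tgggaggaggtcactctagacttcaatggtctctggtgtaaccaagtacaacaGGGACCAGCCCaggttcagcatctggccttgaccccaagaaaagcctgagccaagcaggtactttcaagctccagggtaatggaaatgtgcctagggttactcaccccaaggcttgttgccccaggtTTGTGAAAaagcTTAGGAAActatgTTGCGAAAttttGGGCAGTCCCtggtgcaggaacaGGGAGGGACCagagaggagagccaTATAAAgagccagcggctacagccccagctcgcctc
C1ra (chr6:124512371-124512670, plus strand): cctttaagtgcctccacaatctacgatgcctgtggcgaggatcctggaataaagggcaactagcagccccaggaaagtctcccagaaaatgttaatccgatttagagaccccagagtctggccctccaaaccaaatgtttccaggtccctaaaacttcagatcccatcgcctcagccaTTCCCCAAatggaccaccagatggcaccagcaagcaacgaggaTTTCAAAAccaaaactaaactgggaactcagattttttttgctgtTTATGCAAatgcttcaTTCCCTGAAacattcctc
Cd55 (chr1:130462695-130462994, minus strand): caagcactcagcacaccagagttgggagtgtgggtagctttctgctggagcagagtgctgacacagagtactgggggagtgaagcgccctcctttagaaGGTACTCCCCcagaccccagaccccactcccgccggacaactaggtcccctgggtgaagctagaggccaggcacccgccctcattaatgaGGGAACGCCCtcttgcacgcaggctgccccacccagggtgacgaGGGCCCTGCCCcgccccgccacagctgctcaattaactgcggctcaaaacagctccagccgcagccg
The C3 window held C/EBP, NF-kB and TATAAA matches, that of C1ra C/EBP matches and a GAS match, and that of Cd55 NF-kB matches. The TATAAA match of C3 lay at position 15 and the GAS match of C1ra at position 33, both after the RefSeq start. Gencode places the start of C1ra earlier, at 124512405, so by that annotation most of its window lies inside the gene. These short motifs are common. Of 32851 promoters of the same length, 50.8% held the NF-kB letters, 40.7% the C/EBP letters, 13.6% the letters TATAAA, 8.30% the GAS and 3.44% the IRF letters.

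Each group was checked against cell type markers before the complement genes were compared. All 10 astrocyte markers lay above 3 counts in every group, but their summed level differed widely, from 1003 to 1521 CPM (counts scaled to a common library size, with TMM factors) in AdAC CellC and 2019 to 2547 CPM in the NSC to 55392 to 60335 CPM in AGES, where Gfap alone averaged 50503 CPM. The lower sum in AdAC CellC than in the NSC came from 3 markers, led by Slc1a3 (219 against 1499 CPM on average), while the other 7 were higher in AdAC CellC, for example Aldh1l1 (180 against 18.8 CPM). The AdAC direct libraries held 28528 to 32142 CPM of 8 oligodendrocyte markers and AdAC CellC 4546 to 11613 CPM, against at most 406 CPM in the other groups. A list of 7 fibroblast, meningeal and mural markers summed to 1183 to 1655 CPM in AdAC CellC and 285 to 325 CPM in AdAC direct. NeoAC direct replicate 2 stood apart with 70.8 CPM of 10 microglia markers against 17.0 to 26.3 CPM in the other 3 libraries of its group. In bulk RNA, fewer cells of a type and less RNA per cell cannot be told apart.

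**Figure D1:**
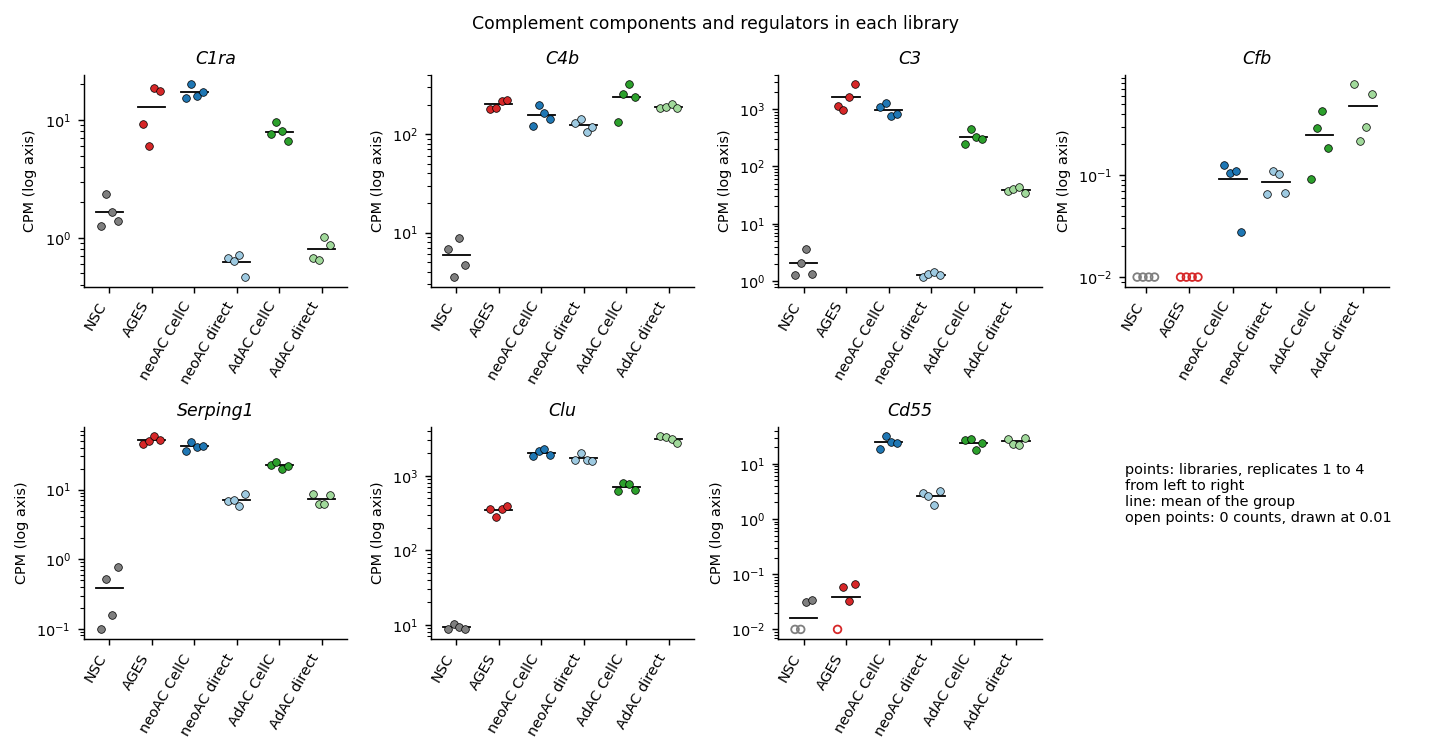
CPM (log axis) of the 7 complement genes in each of 24 libraries, by group. Filled points are libraries, lines are means of 4 libraries, and open points at the foot are libraries with 0 counts. C3 spans from 1.17 CPM in a directly isolated neonatal library to 2733 CPM in an AGES library, while C4b stays between 105 and 322 CPM outside the NSC.

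C3 was nearly silent in the NSC, with 1.27, 2.09, 3.60 and 1.34 CPM in replicates 1 to 4, and in neoAC direct, with 1.17, 1.30, 1.43 and 1.26 CPM. AdAC direct held 37.7, 40.1, 43.7 and 35.0 CPM, AdAC CellC 249, 455, 322 and 308 CPM, neoAC CellC 1086, 1277, 762 and 816 CPM, and AGES 1142, 965, 1647 and 2733 CPM. Every cultured astrocyte library was above every directly isolated library, and AGES replicate 4 was the highest of all 24. C3 ranked AGES, neoAC CellC, AdAC CellC, AdAC direct, NSC and neoAC direct, and all neighbours in this order differed by edgeR's quasi-likelihood test except the NSC and neoAC direct (log2 difference for neoAC direct over NSC -0.69 ± 0.40 SE, adjusted p = 0.121).

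C4b is the next substrate of the cascade after C1. AGES libraries held 182, 186, 219.6 and 219.8 CPM. The levels were 121, 198, 166 and 143 CPM in neoAC CellC, 129.7, 143, 105 and 117 CPM in neoAC direct, 132, 256, 322 and 238 CPM in AdAC CellC and 185, 189, 203 and 185 CPM in AdAC direct. The NSC held 6.78, 3.52, 8.79 and 4.65 CPM and lay apart from all of these. The others overlapped with their neighbours in order, but neoAC direct overlapped with neither AGES nor AdAC direct, and AdAC CellC was 1.92-fold above neoAC direct (edgeR adjusted p = 0.00056). In order of its means (AdAC CellC, AGES, AdAC direct, neoAC CellC, neoAC direct, NSC) no neighbours differed until neoAC direct and NSC, which differed by 4.38 ± 0.26 (SE) on the log2 scale (edgeR adjusted p = 2.8e-13). AdAC CellC replicate 1 was the lowest of its group, and several C4b values below depend on it.

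C1ra, the protease that starts the classical pathway, was low throughout. It held 15.2, 20.1, 16.1 and 17.3 CPM in neoAC CellC, 9.32, 6.06, 18.5 and 17.6 CPM in AGES and 7.61, 9.62, 7.995 and 6.61 CPM in AdAC CellC. The NSC held 1.27, 2.34, 1.66 and 1.40 CPM, above AdAC direct (0.674, 0.649, 1.01 and 0.874 CPM) and neoAC direct (0.683, 0.637, 0.713 and 0.466 CPM). Every cultured astrocyte library was thus above every directly isolated library and every NSC library. Within AGES, replicates 3 and 4 were higher than replicates 1 and 2, as they were for C3.

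Serping1, the inhibitor of C1r and C1s, was highest in AGES (44.9, 50.6, 58.0 and 51.9 CPM) and neoAC CellC (35.9, 49.1, 41.4 and 42.9 CPM), which did not differ by the test. AdAC CellC held 22.3, 24.9, 20.001 and 22.2 CPM, AdAC direct 8.66, 6.24, 6.24 and 8.43 CPM and neoAC direct 6.92, 7.12, 5.78 and 8.52 CPM. The NSC held 0.0978, 0.516, 0.159 and 0.769 CPM, the lowest of them only 3 counts. The cultured astrocyte groups did not overlap with the directly isolated ones.

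Cd55, the membrane regulator, split the preparations differently. It was similar in AdAC direct (28.2, 23.4, 22.1 and 29.4 CPM), neoAC CellC (18.9, 31.4, 24.6 and 24.2 CPM) and AdAC CellC (27.6, 27.9, 17.7 and 23.9 CPM), and lower in neoAC direct (2.99, 2.58, 1.80 and 3.19 CPM). AGES libraries held at most 2 counts and NSC libraries at most 1. Both stem cell derived groups were therefore at or under the floor of 3 counts, which is 0.0962 CPM in the NSC and 0.0997 CPM in AGES.

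Clu, the secreted chaperone, had the highest level per kilobase of exon in every group but AGES. AdAC direct held 3374, 3371, 3113 and 2744 CPM, neoAC CellC 1829.5, 2124, 2266 and 1923 CPM, neoAC direct 1640.3, 1998, 1631 and 1588 CPM, AdAC CellC 619, 809, 785 and 648 CPM, AGES 356, 284, 356 and 397 CPM and the NSC 8.67, 10.3, 9.39 and 8.80 CPM. Apart from the 2 neonatal groups, no groups overlapped.

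Cfb was near the limit of detection. It had 0 counts in all 4 AGES and all 4 NSC libraries, 1 to 4 counts in the neonatal libraries, 3 to 16 in AdAC CellC and 7 to 22 in AdAC direct, the highest being 0.781 CPM. Of its 2825 exon bases 2246 are shared with a read-through gene on the same strand, Gm20547. All exon bases of Gm20547 lie in Cfb or C2, and it had 0 counts in all libraries. The authors name no counting option for reads that lie in overlapping genes, and reads on the shared bases may not have been counted. The level of Cfb is thus uncertain and may be too low, also per kilobase of exon. A total of 0 counts allows up to 3 in each library.

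The pairwise contrasts used for these orders called many genes. Of all genes tested, 80% differed between neoAC direct and NSC, 77.3% between AdAC CellC and NSC, 86.2% between AdAC direct and NSC, 73.8% between neoAC direct and AGES, 80.4% between AdAC direct and AGES, 74% between AdAC direct and neoAC CellC and 70.7% between AdAC CellC and neoAC direct. The share for neoAC CellC against NSC is not given here. Of the 15 pairs of groups, C3 and Clu differed in 14 each, C1ra and Serping1 in 13 each, Cfb in 12, Cd55 in 11 and C4b in 9. The Cfb pairs include both neonatal groups against AGES and against NSC. Those set 1 to 4 counts against 0, within the floor's reach, and show no usable difference.

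Because the genes differ in exon length, levels were compared between genes as CPM per kilobase of exon. On that scale Clu made up 95.1% ± 0.418 (SD, n = 4) of the summed level of the 7 genes in neoAC direct and 94.8% ± 0.517 in AdAC direct. The share was 70.5% ± 4.67 in neoAC CellC and 63.0% ± 2.76 in AdAC CellC, with C3 at 22.7% ± 4.72 and 19.4% ± 2.44. In AGES C3 made up 63.8% ± 7.83 and Clu 22.4% ± 4.92. C3 was 8.69 ± 3.54 times C4b per kilobase in AGES, 7.12 ± 2.06 times in neoAC CellC and 1.65 ± 0.460 times in AdAC CellC, against 0.227 ± 0.0127 in AdAC direct and 0.0118 ± 0.00238 in neoAC direct. The balance of the substrates C3 and C4b thus lay on the side of C4b in the directly isolated cells and on that of C3 in the cultured astrocytes, in every library.

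**Figure D2:**
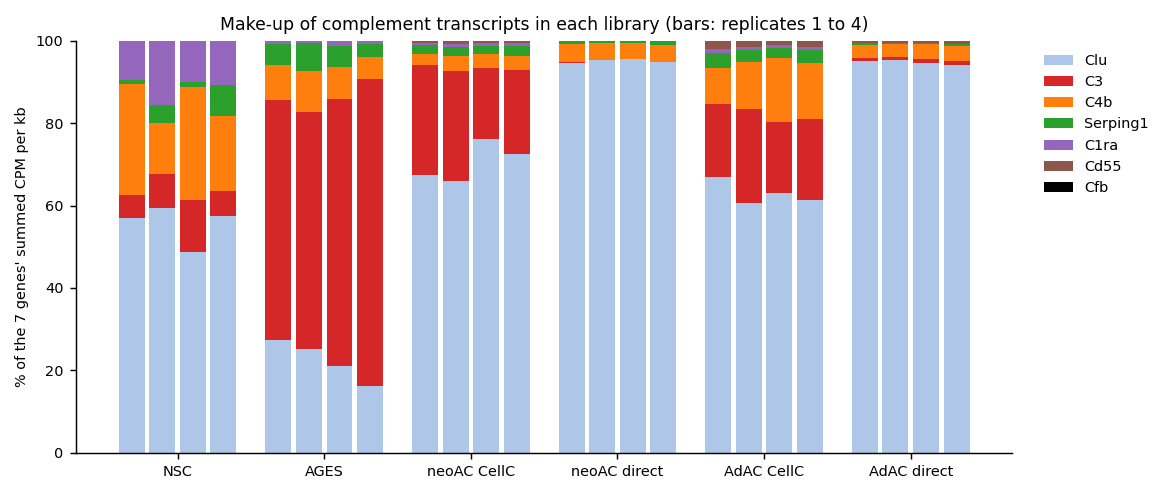
Share of each of the 7 genes in their summed CPM per kilobase of exon (%), 1 bar per library, 4 libraries per group. Clu fills 94.2% to 95.6% of each directly isolated library, and C3 fills 57.4% to 74.5% of each AGES library.

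AGES were compared with the NSC they came from to ask what changed on differentiation. BMP4, the absence of FGF and EGF, and a coating of poly-ornithine and laminin went together in AGES and cannot be told apart. Against the NSC, 5 of 7 members rose and 0 fell, with Cd55 and Cfb at the floor in both groups, where 31.7% of all genes rose and 34% fell. C3 was 781-fold higher (log2 fold change 9.60 ± 0.40 SE), Serping1 133-fold (7.05 ± 0.26), Clu 37.5-fold (5.23 ± 0.14), C4b 34.0-fold (5.09 ± 0.27) and C1ra 7.73-fold (2.94 ± 0.27). The edgeR adjusted p was between 4.5e-10 for C1ra and 1.2e-20 for Clu. The AGES and NSC libraries overlapped for none of these 5, nor for 58.3% of all genes tested. The median log2 fold change was 5.23 over the 5 members above the floor and 0 over all genes. Of the 10 microglia markers, 5 were at or under 3 counts in AGES, and the highest, Cd68, averaged 2.44 CPM.

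Culture of neonatal astrocytes was compared with direct isolation. In neoAC CellC 4 of 7 members were higher and 0 lower than in neoAC direct, where 34.4% of all genes were higher and 31.3% lower. C3 was 763-fold higher (log2 9.57 ± 0.40), C1ra 27.5-fold (4.77 ± 0.31), Cd55 9.38-fold (3.23 ± 0.19) and Serping1 5.98-fold (2.58 ± 0.19). The edgeR adjusted p lay from 8.8e-12 for Serping1 to 3.8e-15 for C3. The groups did not overlap for these 4, nor for 58.0% of all genes tested. C4b (0.35 ± 0.22, 95% interval -0.08 to 0.77, edgeR adjusted p = 0.168) and Cfb (0.07 ± 0.69, adjusted p = 0.938) did not pass the test. Clu did not pass either (0.25 ± 0.11, adjusted p = 0.0543), but did without neoAC direct replicate 2 (0.33, edgeR adjusted p = 0.0164). That library held the highest Clu of its group, and the most microglia marker and the most fibroblast, meningeal and mural marker RNA. Clu also passed when any 1 of 7 other libraries was left out (0.25 to 0.30). It also passed with library size only (0.48, edgeR adjusted p = 0.000427), with a minimum of 10 counts in each library (0.35, 0.0094) and with DESeq2 (0.26, 0.0438). The fibroblast, meningeal and mural markers summed to 432 to 689 CPM in neoAC CellC and 404 to 722 CPM in neoAC direct, and the oligodendrocyte and choroid plexus sums overlapped too. Other lists moved. Astrocyte markers summed to 7630 to 8842 CPM in neoAC CellC and 21797 to 24611 CPM in neoAC direct. Sums of 3 ependymal markers were 1241 to 1571 and 113 to 170 CPM, and of 5 endothelial markers 3.88 to 6.63 and 64.5 to 262 CPM. The part of any of these lists in the changes was not tested. The count of called members stayed at 4 or 5 when any 1 library was left out.

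The same comparison in adult cells gave 3 members higher and 1 lower in AdAC CellC, against 38.8% of all genes higher and 39.2% lower. C1ra was 9.92-fold higher (log2 3.30 ± 0.29), C3 8.52-fold (3.09 ± 0.29) and Serping1 3.02-fold (1.60 ± 0.18), whereas Clu was 4.40-fold lower (-2.14 ± 0.12), with edgeR adjusted p of 2.0e-08 or below for each. Cd55 differed by -0.09 ± 0.17 (95% interval -0.42 to 0.24, edgeR adjusted p = 0.637). C4b differed by 0.32 ± 0.22 (adjusted p = 0.184) and passed the test only without AdAC CellC replicate 1 (0.53, edgeR adjusted p = 0.0149). Cfb differed by -0.90 ± 0.46 (adjusted p = 0.0802) and passed without AdAC CellC replicate 3 (-1.28, edgeR adjusted p = 0.0301) or AdAC direct replicate 2 (-1.14, edgeR adjusted p = 0.0321). Over this comparison the summed astrocyte markers moved from 16252 to 16972 CPM in AdAC direct down to 1003 to 1521 CPM in AdAC CellC, and the oligodendrocyte markers were lower too, as given above. The fibroblast, meningeal and mural markers were at 1183 to 1655 against 285 to 325 CPM, and the microglia markers at 37.3 to 52.0 against 22.1 to 31.6 CPM. The part of any of these in the changes of C3, C1ra, Serping1 and Clu was not tested.

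Whether the change on culturing differed between adult and neonatal cells was tested as the interaction of culture and age. It was smaller or more negative in adult cells for 5 of 7 members and larger for 0, where all genes gave 33.2% and 35.4%. The difference in log2 fold change, adult minus neonatal, was -6.48 ± 0.45 for C3, -3.32 ± 0.25 for Cd55, -2.39 ± 0.16 for Clu, -1.48 ± 0.43 for C1ra and -0.98 ± 0.26 for Serping1, with edgeR adjusted p of 1.7e-11, 2.0e-11, 1.6e-12, 0.00397 and 0.00156. Between the ages, C3 and Cd55 differed more in the directly isolated cells than in the cultured ones. C4b gave -0.03 ± 0.31 (95% interval -0.63 to 0.57, edgeR adjusted p = 0.944) and Cfb -0.97 ± 0.84 (adjusted p = 0.317).

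**Figure D3:**
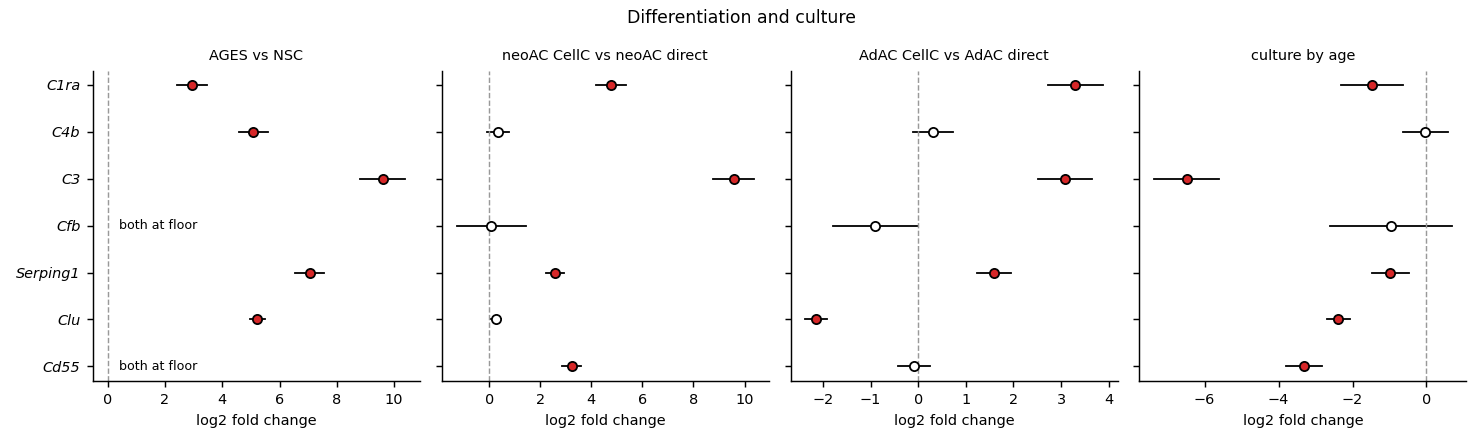
Log2 fold changes of the 7 genes on differentiation (AGES against NSC), on culture of neonatal and adult astrocytes, and the difference between the 2 culture changes (culture by age, adult minus neonatal). Points are edgeR estimates, bars 95% intervals, and red points have an adjusted p under 0.05. C3 rises in all 3 comparisons, and Clu lies near 0 on neonatal culture and at -2.14 on adult culture.

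Directly isolated neonatal astrocytes were below adult ones for 5 of 7 members and above for 0, against 36.4% and 35% of all genes. C3 was 30.3-fold lower (log2 -4.92 ± 0.36), Cd55 9.76-fold lower (-3.28 ± 0.19) and Clu 1.84-fold lower (-0.88 ± 0.11). Cfb was called lower too (-2.40 ± 0.55, or 5.56-fold), but on 2 to 4 counts per library in neoAC direct against 7 to 22 in AdAC direct. With neoAC direct near the floor of 3 counts, the size of that difference is uncertain. The edgeR adjusted p was 0.000676 for Cfb and 1.5e-07 or below for the others. C4b was 1.54-fold lower (-0.62 ± 0.22, edgeR adjusted p = 0.0139). Serping1 (-0.06 ± 0.19, 95% interval -0.43 to 0.31) and C1ra (-0.37 ± 0.36, -1.07 to 0.34) did not pass the test, with edgeR adjusted p of 0.787 and 0.368. The adult libraries held 28528 to 32142 CPM of oligodendrocyte markers and the neonatal ones 332 to 406 CPM. Other lists differed without overlap too. In the same order, neural stem cell markers summed to 413 to 492 and 6354 to 8160 CPM and ependymal markers to 870 to 979 and 113 to 170 CPM. Astrocyte markers summed to 16252 to 16972 and 21797 to 24611 CPM, and choroid plexus markers to 76.7 to 272 and 567 to 1209 CPM. Whether any of these differences moved the complement genes was not tested.

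Among cultured cells, neoAC CellC exceeded AdAC CellC for 4 members and lay below for 2, against 28.5% and 35.2% of all genes. C3 was 2.96-fold higher (log2 1.56 ± 0.27), Clu 2.85-fold (1.51 ± 0.11), C1ra 2.16-fold (1.11 ± 0.24) and Serping1 1.89-fold (0.92 ± 0.17), with edgeR adjusted p of 0.000258 or below. Cd55 differed by 0.03 ± 0.17 (95% interval -0.30 to 0.36, edgeR adjusted p = 0.883). Oligodendrocyte markers summed to 276 to 360 CPM in neoAC CellC and 4546 to 11613 CPM in AdAC CellC, astrocyte markers to 7630 to 8842 and 1003 to 1521 CPM, and fibroblast, meningeal and mural markers to 432 to 689 and 1183 to 1655 CPM. Ependymal markers summed to 1241 to 1571 and 192 to 270 CPM, and other lists differed as well. The part of any list in these differences was not tested. The lower calls rested on few libraries. C4b (-0.59 ± 0.22, edgeR adjusted p = 0.0207) was no longer past the threshold without AdAC CellC replicate 2 (0.0521) or 3 (0.118), or neoAC CellC replicate 1 (0.0793) or 4 (0.0569). Cfb (-1.43 ± 0.57, edgeR adjusted p = 0.0352) was lost without AdAC CellC replicate 2 (0.0724) or 3 (0.161), or neoAC CellC replicate 2 (0.0563), 3 (0.0535) or 4 (0.106).

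AGES were set against each kind of cultured primary astrocyte to ask how close they come. These comparisons share libraries with each other and with the previous ones. The oligodendrocyte markers summed to 24.7 to 46.1 CPM in AGES and the fibroblast, meningeal and mural markers to 1.5 to 2.0 CPM, far below both cultured primary groups, and their part in the differences was not tested. Against AdAC CellC, 3 members were higher and 3 lower, where 31% of all genes were higher and 45.2% lower and the median of all genes was -0.23 on the log2 scale. C3 was 4.87-fold higher in AGES (log2 2.28 ± 0.28) and Serping1 2.30-fold (1.20 ± 0.17), while Clu was 2.05-fold lower (-1.04 ± 0.11), with edgeR adjusted p of 9.55e-07 or below. Cd55 was at least 243-fold lower in AGES, taking the floor of 3 counts per library as the AGES level, and Cfb at least 2.49-fold lower (edgeR adjusted p = 3.3e-18 and 5.3e-05). C1ra was 1.62-fold higher (0.69 ± 0.24, edgeR adjusted p = 0.0113) with overlapping groups, but not without AGES replicate 3 (0.47, edgeR adjusted p = 0.0844) or 4 (0.50, 0.0675). C4b did not pass (-0.23 ± 0.22, edgeR adjusted p = 0.335), except without AdAC CellC replicate 1 (-0.42, edgeR adjusted p = 0.0480).

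Against neoAC CellC, AGES were higher for 1 member and lower for 3, where 34.1% of all genes were higher and 40.5% lower. Cd55 was at least 248-fold lower in AGES and Clu 5.85-fold lower (log2 -2.55 ± 0.12), with edgeR adjusted p of 2.7e-18 and 3.2e-16. Cfb passed the test (edgeR adjusted p = 0.0035), yet neoAC CellC held only 1 to 4 counts, so no fold is given. C3 was 1.65-fold higher (0.72 ± 0.27, edgeR adjusted p = 0.0185), with overlapping groups. That call was lost without AGES replicate 4 (0.34, edgeR adjusted p = 0.184), neoAC CellC replicate 3 (0.61, 0.0651) or 4 (0.64, 0.0578), and with DESeq2 in place of edgeR (0.65, adjusted p = 0.060). C1ra (-0.42 ± 0.24, 95% interval -0.88 to 0.05, edgeR adjusted p = 0.113) became a call without AGES replicate 3 (-0.65, 0.0196) or 4 (-0.61, 0.0301), with library size only (-0.73, 0.00627) and with a minimum of 10 counts in each library (-0.62, 0.0212). Serping1 (0.28 ± 0.17, -0.06 to 0.61) and C4b (0.36 ± 0.22, -0.06 to 0.79) did not pass, with edgeR adjusted p of 0.143 and 0.135.

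The median log2 difference over the members, with genes at the floor in AGES set to their bound, was -0.23 for AGES against AdAC CellC, as over all genes. For AGES against neoAC CellC Cfb has no usable bound. Without Cfb the median lies between the values of C1ra (-0.42) and Serping1 (0.28), with -0.07 over all genes between them. With fitted values, which depend on the prior count and take Cfb as lower, it was -0.42, so no shift of the members is read from it. The median was 0.92 for neoAC CellC against AdAC CellC (all genes -0.08) and -0.88 for neoAC direct against AdAC direct (all genes 0). For culture it was 2.58 in neonatal cells (all genes 0.04), 0.32 in adult cells (all genes 0) and -1.48 for the interaction (all genes 0.05).

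**Figure D4:**
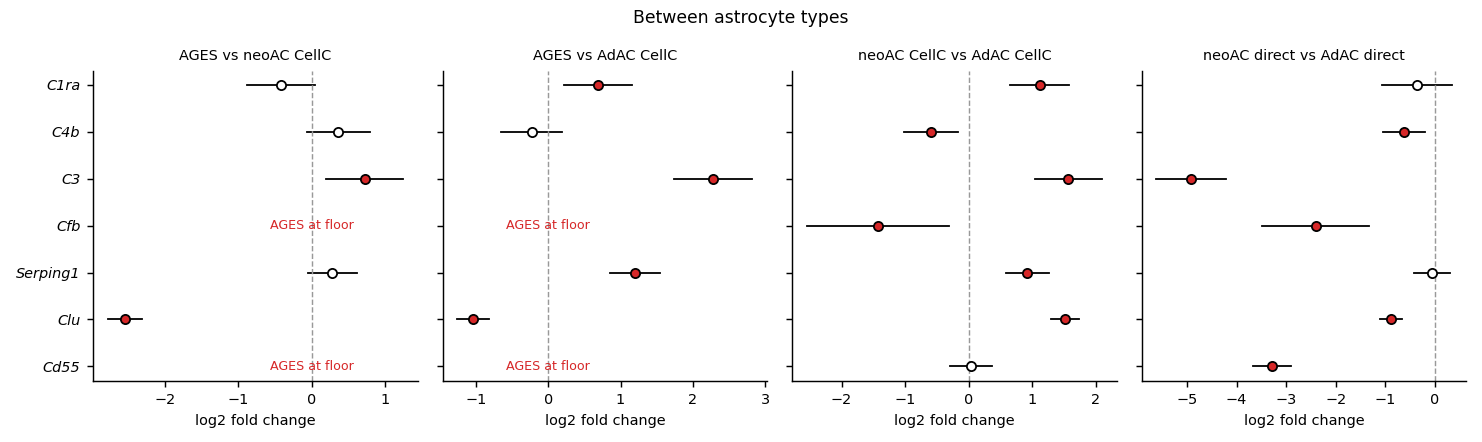
Log2 differences of the 7 genes between AGES and cultured primary astrocytes, and between neonatal and adult astrocytes. Points are edgeR estimates, bars 95% intervals, red points have an adjusted p under 0.05, and no point is drawn where AGES were at the floor. Clu is lower in AGES than in both cultured primary types, at -2.55 and -1.04.

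The other complement genes came from a list of 43, of which 26 passed the filter on low counts and 17 reached 10 CPM in some group. Members past the test are given as higher and lower, with the shares of all genes in brackets. They were 9 and 5 for AGES against NSC (31.7% and 34%), 7 and 14 for neonatal culture (34.4% and 31.3%) and 11 and 9 for adult culture (38.8% and 39.2%). AGES gave 10 and 14 against AdAC CellC (31% and 45.2%) and 7 and 11 against neoAC CellC (34.1% and 40.5%). Neonatal against adult cells gave 7 and 15 after culture (28.5% and 35.2%) and 9 and 8 after direct isolation (35% and 36.4%), and the interaction of culture and age gave 12 and 7 (35.4% and 33.2%). The genes moved in both directions in every comparison.

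C1s1, the partner protease of C1ra, averaged 18.02 CPM in AGES, 14.9 in neoAC CellC and 10.4 in AdAC CellC against 2.94 in neoAC direct and 1.43 in AdAC direct, and was higher on culture of neonatal (log2 2.34, edgeR adjusted p = 4.4e-09) and adult cells (2.86, 2.0e-10). Its ratio to C1ra was not constant, since C1ra per kilobase was 0.239 times C1s1 in neoAC direct and 1.23 times in neoAC CellC. The C1q chains, in contrast, were at 0 or 1 count in every AGES library. Their levels varied between the primary groups. C1qa averaged 12.6 ± 2.6 CPM in AdAC CellC, 3.29 ± 0.47 in AdAC direct, 4.53 ± 4.0 in neoAC direct and 1.38 ± 0.75 in neoAC CellC, with the highest count of the neoAC direct libraries, 380, in replicate 2. C1qa, C1qb and C1qc rose on adult culture (log2 1.93, 1.90 and 1.86) and fell on neonatal culture (-1.72, -2.77 and -2.43), all with edgeR adjusted p of 0.0014 or below. The 10 microglia markers summed to 37.3 to 52.0 CPM in AdAC CellC, 22.1 to 31.6 in AdAC direct, 17.0 to 70.8 in neoAC direct, 10.4 to 13.5 in neoAC CellC and 2.3 to 5.1 in AGES, and their part in the C1q values was not tested. On the lectin side Masp1, a protease gene, was highest in AGES (69.4 ± 38 CPM) and fell on neonatal culture (-3.19, edgeR adjusted p = 2.8e-10).

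Regulators other than Cd55 were also uneven in AGES. Csmd1, a membrane regulator, averaged 10.6 to 103 CPM in the primary groups and 2 to 5 counts in AGES libraries. Cd59a, which blocks pore formation, went the other way, at 36.9 ± 9.6 CPM in AGES against 15.4 ± 2.4 in neoAC CellC (log2 1.25, edgeR adjusted p = 2.0e-06) and 17.4 ± 2.5 in AdAC CellC (1.08, 1.4e-05). Cr1l (Crry), the broad rodent regulator of C3-cleaving enzymes, stayed between 30.2 and 54.5 CPM in the means of all 6 groups, and Cd46 was 8.75 ± 0.81 CPM in AGES and 1.67 ± 0.24 in AdAC CellC. In AGES Cd55 was thus at the floor, while Cd59a, Cr1l and Serping1 were expressed. Hc, which encodes C5, rose on neonatal culture (log2 3.71, edgeR adjusted p = 1.3e-13) and fell on adult culture (-2.23, 1.9e-10).

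**Figure D5:**
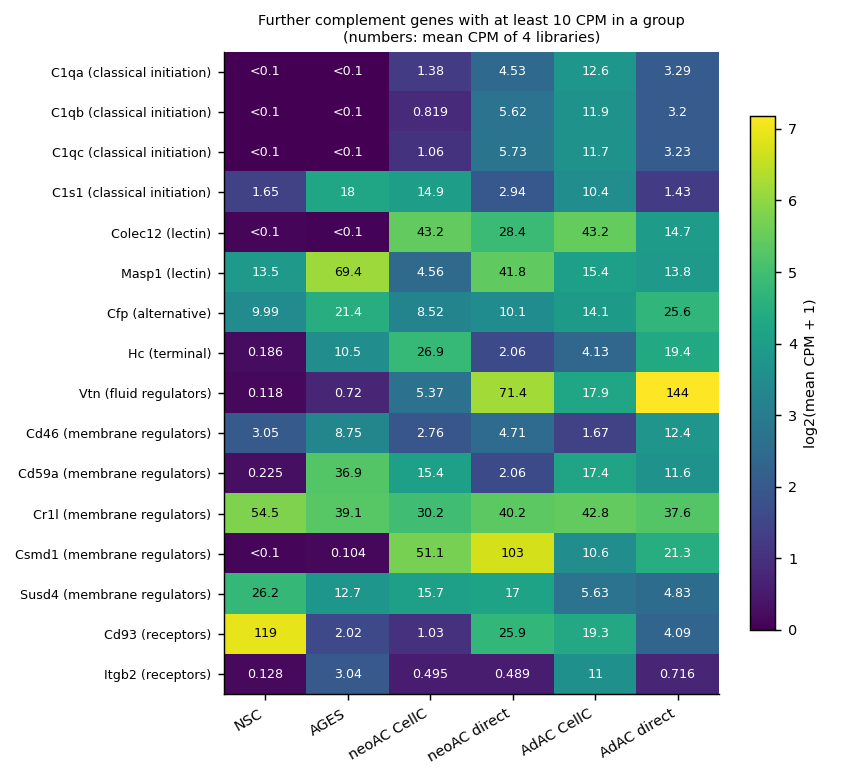
Mean CPM (numbers) and log2(mean CPM + 1) (colour) of further complement genes in the 6 groups, 4 libraries each, ordered by role. The C1q genes are under 0.1 CPM in AGES and NSC, while Cd59a is highest in AGES at 36.9 CPM.

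Regulators of transcription that act on complement genes were counted from a list of 10, with members of the STAT, IRF, NF-kB and C/EBP families. Of these, 8 rose and 0 fell in AGES against NSC (all genes 31.7% and 34%), from Cebpd (log2 3.85, edgeR adjusted p = 9.6e-10) to Rela (0.56, 1.3e-06). Bcl3 is among the 8, although it held only 0 to 2 counts in NSC libraries and 0 to 13 in AGES libraries, and the groups overlapped. In adult culture 9 were higher and 0 lower (all genes 38.8% and 39.2%), from Bcl3 (5.62, edgeR adjusted p = 2.4e-13) to Rela (0.25, 0.0081). In neonatal culture 4 were higher and 6 lower (all genes 34.4% and 31.3%), from Bcl3 (3.16, edgeR adjusted p = 1.7e-08) to Cebpb (-1.79, 7.7e-06). Cebpd averaged 6.24 ± 0.51 CPM in AdAC direct and 149 ± 30 CPM in neoAC direct. Any part of the listed regulators in the levels of the complement genes was not tested. In the other comparisons the numbers higher and lower, with those shares, were 1 and 4 for AGES against AdAC CellC (31% and 45.2%), 4 and 4 for AGES against neoAC CellC (34.1% and 40.5%), 1 and 7 for neoAC CellC against AdAC CellC (28.5% and 35.2%), 5 and 3 for neoAC direct against AdAC direct (35% and 36.4%) and 8 and 1 for culture by age (35.4% and 33.2%). Bcl3 was the lowest in the first 3 of these (-6.86, -4.55 and -2.31) and Cebpd the highest in the last 2 (4.57 and 5.21). The Bcl3 values for AGES rest on those low counts.

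The genes whose log2 CPM ran most closely with each member over the 24 libraries were named from 12041 protein-coding genes with at least 10 CPM in a group. These libraries fall into 6 groups, so the correlations mostly describe group means and carry no p. For C3 they were Shroom3, Ctnnal1 and Nxn (r = 0.975, 0.964 and 0.962), for C4b Kif26b, Slc8a1 and Atxn1 (0.971, 0.956 and 0.956), for C1ra P3h2, Habp4 and Tlr2 (0.968, 0.964 and 0.950) and for Serping1 Casq1, Mmp11 and Capn1 (0.975, 0.965 and 0.963). For Clu they were Shpk, Id4 and Mgll (0.990, 0.984 and 0.983), for Cfb Apod, Map7 and Tspan2 (0.940, 0.939 and 0.939) and for Cd55 Col8a2, Efemp1 and Spint2 (0.996, 0.993 and 0.991). Among the members themselves r was highest for C4b with Clu (0.88), C1ra with C3 (0.87) and C4b with Serping1 (0.87).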

How the data were processed

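Of 24 libraries in 6 groups of 4, the authors prepared stranded polyadenylated RNA-seq, aligned the read pairs to GRCm38 with STAR 2.7.3a, keeping reads with up to 20 alignments, and counted them on exons (Gencode vM12) with featureCounts. The deposited values are raw counts, whole numbers per gene. Strand, multi-mapping and overlap settings of counting are not stated in the sources used here. Groups came from the sample titles.

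Tests used edgeR 4.0.16 under R 4.3.3 (filterByExpr, TMM, robust quasi-likelihood, 1 fit of 6 groups, two-sided, Benjamini-Hochberg over 19691 genes, threshold 0.05), with limma 3.58.1 loaded, and DESeq2 1.42.0 as an alternative. The script was tested on simulated data. SE is the size of the log2 fold change over the square root of F, and 95% intervals are 1.96 SE either side, unadjusted. CPM use TMM factors, and ± marks the SD over libraries. The floor is 3 counts per library and covers counting error only. Gene positions came from Gencode vM21 (GRCm38), which matched 49412 of 49671 genes. Replicates were separate isolations or cultures.

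The 7 members and all gene lists were chosen with earlier results of these data known. Named genes were the members, their near copies, listed complement genes of at least 10 CPM in some group, the listed regulators of transcription with the largest and smallest change in a comparison, and the 3 genes of highest correlation with each member. Some genes that this rule names are not reported here. Alternatives were other scaling, filters, tests and libraries, and each library left out in turn. Replicate numbers did not pair the samples. No libraries of a group agreed within sampling noise (chi-square per gene at least 6.02), so none was counted as a repeat.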

Additional observations from a re-analysis of the deposited data

Results flagged for a closer look

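Clu in neoAC direct replicate 2, at 1998.29 CPM, lay far from the other 3 libraries of its group, which were between 1588 and 1640.3 CPM. Its gap to the nearest library was 0.873 of the group's range. Such a gap arises by chance in about 1 of 20 groups of 4, and 38 combinations of gene and group were screened. The same library held the most microglia marker RNA of its group. It also held the most fibroblast, meningeal and mural marker RNA, at 722 CPM against 404 to 576 CPM in the other 3 libraries. Any link of these with Clu was not tested.

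For 5 members the change on culturing differed between adult and neonatal astrocytes by the interaction test. The difference (log2, adult minus neonatal) was -6.48224 for C3, -3.31538 for Cd55, -2.38665 for Clu, -1.47731 for C1ra and -0.981481 for Serping1. C3, C1ra and Serping1 rose at both ages. Cd55 rose in neonatal cells and did not pass the test in adult cells, and Clu fell in adult cells and did not pass the test in neonatal cells.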

How the results depend on the processing

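Of 54 log2 fold changes under 8 alternatives and with each of 24 libraries left out, 1621 of 1696 values kept direction and side of the threshold. A further 36 were no longer past it, 23 newly passed and 16 changed sign, 0 of them among called changes. In a comparison of 2 groups most libraries left out belonged to neither group, and bear on it only through the shared fit. Of the 54 fold changes, 33 kept direction and side of the threshold in every value. A minimum of 10 counts per library drops Cfb, Serping1 and Cd55 from the fit (0 pairs of groups called for each), and the members called were then 3 for AGES against AdAC CellC, 2 for AGES against neoAC CellC, 3 for neoAC direct against AdAC direct and 3 for culture by age. With an absolute log2 fold change over 1, 3 were called for neoAC direct against AdAC direct, and with only the compared groups fitted and no block, 2 for AGES against neoAC CellC. Without normalization factors (library size only), Serping1 in AGES against neoAC CellC was -0.026 (edgeR adjusted p = 0.903), and the calls of all genes moved from 6766 higher and 6170 lower to 8628 and 4468 for neonatal culture, and from 6710 and 7977 to 4504 and 9822 for AGES against neoAC CellC. The cause of these shifts was not tested beyond the filter's own loss of genes.

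Leaving out 1 library gave 3 to 5 called members for AGES against neoAC CellC, 4 to 6 for neoAC CellC against AdAC CellC, 5 to 7 for AGES against AdAC CellC and 4 to 5 for each culture comparison, with 5 in the rest. It gave ranges across 0 for changes that had not passed: Cd55 on adult culture -0.16 to 0.053, Cfb on neonatal culture -0.088 to 0.37, Cd55 in neoAC CellC against AdAC CellC -0.10 to 0.15, Serping1 in neoAC direct against AdAC direct -0.16 to 0.027 and C4b in culture by age -0.20 to 0.18. C4b in neoAC direct against AdAC direct was no longer called without a filter (edgeR adjusted p = 0.0565).

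Same-numbered libraries of different groups correlated between -0.095 and 0.106 in their deviations, so the numbers were not taken as pairs. With a replicate block, C3 in AGES against neoAC CellC (0.59, edgeR adjusted p = 0.171) and C1ra in AGES against AdAC CellC (0.68, 0.119) were no longer called, while C4b on neonatal culture (0.30, 0.0424), and C4b (0.34, 0.0465) and Serping1 (0.24, 0.0441) in AGES against neoAC CellC newly passed. Genes at 1 to 22 counts, such as Cfb, set the limit of what these counts can show, and most exon bases of Cfb overlap another gene.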
